A study of Mus musculus with 6 samples.

Results

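The genes described here are 10 genes of Notch signalling: the receptor genes Notch1, Notch2, Notch3 and Notch4, the ligand genes Jag1 and Dll4, the gene of the DNA-binding partner Rbpj, the target gene Hes1, and the Deltex genes Dtx1 and Dtx4. They were taken by gene symbol from the array's probe-to-gene table, and all 10 were measured, among 19938 genes with a feature of their own. A feature is a set of probes that the array summarises to 1 value. Rbpj had 2 features, of which the one with the higher mean over the 6 arrays was used. Notch4 had 1 feature of its own, and 6 further features shared with another gene were not used. RNA of multipotent progenitors (MPP) from mouse bone marrow was hybridised to 6 whole-transcript Affymetrix arrays. Of these, 3 arrays were labelled Lxn-/-, from mice with exons 2 to 4 of latexin deleted and no latexin protein, and 3 were labelled WT, with the gene and protein intact. Latexin is an inhibitor of carboxypeptidases. All donors were C57BL/6 mice of 8 to 12 weeks, labelled female, and each sample was a pool of about 100000 cells from 10 to 20 mice. The sort kept cells without lineage markers that carried Sca-1, c-Kit, CD34 and a receptor written Flt2 in the series text. The labels name no promoter or cell type that would limit the deletion to blood cells. The comparison asks what differs in these progenitors when latexin is absent.

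Notch receptors are cell surface proteins that are cut when a neighbouring cell presents a Delta or Jagged ligand. The released intracellular part moves to the nucleus, where it joins RBPJ and Mastermind proteins on DNA and switches on targets such as Hes1. In blood, signalling through Notch1 directs progenitors that reach the thymus into the T cell lineage, and Notch2 is needed for marginal zone B cells.

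RBPJ binds DNA at sites with the core TGGGAA. Hes proteins bind the N box, whose letters are CACNAG. Both motifs were searched on both strands in the 250 bases before each annotated start (RefSeq, GRCm38.p6), which the sequence table gave for 8 of the 10 genes, in 9 windows. The RBPJ core was found in the 2 overlapping windows of 1 gene, Rbpj, against 21.6% of the 32841 windows of all genes. The N box was found in windows of 5 genes, Notch1, Notch2, Notch3, Dll4 and Dtx1, against 36.7% of all windows. A match is a description of letters and does not show that a factor binds. The first window of Rbpj is printed as that of the factor's own gene and the only gene with the RBPJ core, and that of Notch3 as the receptor gene whose groups did not overlap. Capitals mark the RBPJ core or its reverse complement in Rbpj, starting at -149 and -65 from the annotated start, and the N box or its reverse complement in Notch3, starting at -204 and -159. The Rbpj window is chr5:53590096-53590345 on the plus strand and the Notch3 window is chr17:32166891-32167140 on the minus strand.
Rbpj: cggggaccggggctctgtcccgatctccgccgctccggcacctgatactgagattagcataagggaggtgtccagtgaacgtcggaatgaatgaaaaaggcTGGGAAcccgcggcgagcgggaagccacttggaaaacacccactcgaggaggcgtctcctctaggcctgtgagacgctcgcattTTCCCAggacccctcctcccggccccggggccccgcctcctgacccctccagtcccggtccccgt
Notch3: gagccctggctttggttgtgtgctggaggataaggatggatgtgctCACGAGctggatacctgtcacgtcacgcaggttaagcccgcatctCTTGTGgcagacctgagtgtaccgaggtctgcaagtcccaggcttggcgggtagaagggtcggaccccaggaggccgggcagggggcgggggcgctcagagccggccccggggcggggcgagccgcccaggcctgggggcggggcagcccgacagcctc

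Levels are log2 values as the authors deposited them, and changes are the mean of arrays labelled Lxn-/- minus the mean of WT arrays, with the standard error (SE) and 95% interval from limma. The fit covered the 23410 features that carry a gene symbol. Some arrays went against their labels. Lxn itself was 8.03, 8.53 and 8.61 in arrays 1, 2 and 3 labelled Lxn-/-, against 8.56, 8.70 and 8.58 in the WT arrays, so it does not check the genotype, and which exons its probes cover is not stated in the labels or files. Arrays 1 and 3 labelled Lxn-/- had the Y-linked gene Eif2s3y at 8.57 and 9.36 and Xist at 6.86 and 5.85. Array 2 labelled Lxn-/- had Eif2s3y at 3.83 and Xist at 13.17, and the WT arrays had Eif2s3y at no more than 3.97 and Xist at no less than 13.13. Results are therefore also given without array 2, and without arrays 1 and 3, which leaves 1 array labelled Lxn-/- that is assumed to vary like the WT arrays. Without array 2, every array labelled Lxn-/- has Y-linked signal and no WT array does. In that fit, the label and the Y-linked signal cannot be told apart. Of 4 genes listed for the sort gate 3 were measured, as the Sca-1 gene Ly6a had no feature of its own. Flt3 was taken for the receptor written Flt2, which is an assumption. Kit, Flt3 and Cd34 were bright in all 6 arrays, with a mean of the 3 values of 12.42 to 12.82 in the arrays labelled Lxn-/- and 12.74 to 12.75 in the WT arrays. Array 1 had the lowest value, with Kit at 11.48. In RNA from pools of cells, fewer cells of a type and less RNA per cell cannot be told apart.

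None of the 10 Notch genes passed an adjusted p of 0.05 in limma (adjusted p from 0.340 to 0.641), and neither did any other feature (0% of those tested). At an unadjusted p under 0.05 there were 2 of the 10, Dtx4 with a higher mean and Notch3 with a lower mean, against 14.3% of all features (5.06% higher and 9.23% lower). Dtx4 and Notch3 were also the 2 genes whose groups did not overlap, against 21.6% of all features (8.54% higher and 13.0% lower). A share of 2 in 10 is near that background, and it is no result about Notch genes as a group. The mean was higher in arrays labelled Lxn-/- for 3 of the 10 genes (Rbpj, Hes1 and Dtx4) and lower for 7, against 42.2% higher and 57.8% lower over all features. The median change was -0.120, against -0.038 over all features. The 95% intervals of the 10 changes lay between -0.46, the lower bound for Dtx1, and 0.76, the upper bound for Dtx4.

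**Figure D1:**
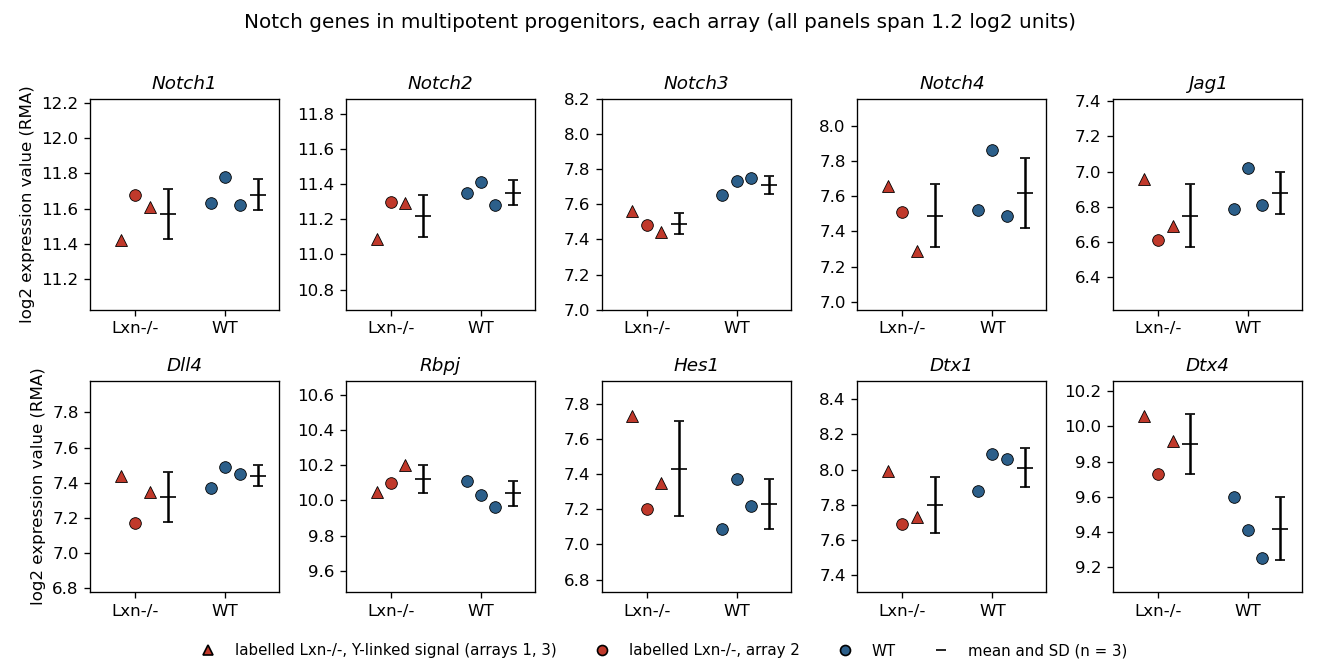
Log2 expression value of each of the 10 Notch genes in every array (points), with the arrays labelled Lxn-/- left of the WT arrays, the mean and SD beside them, and every panel spanning the same range of log2 units. The groups are apart in Dtx4 (9.73 to 10.06 in Lxn-/-, 9.25 to 9.60 in WT) and Notch3 (7.44 to 7.56 in Lxn-/-, 7.65 to 7.75 in WT), and overlap in the other 8 genes.

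The sign of these changes moved with the brightness of a feature across the whole array. Among the 11705 features with a mean log2 value up to 7.77, 15.1% had a higher mean in arrays labelled Lxn-/- and the median change was -0.133. Among the 11705 brighter features 69.3% were higher and the median change was 0.067. Features were therefore also divided by mean level into 10 bands of 2341. The change of each of the 10 Notch genes is set beside the median of its own band, and for the wider lists this is done for some genes only. As a view of the level that features read when their gene should be silent in these cells, the 1035 olfactory receptor features had a median of 5.94 and a 95th percentile of 7.20. Of the 10 Notch genes, Jag1 alone had a mean over 6 arrays below that percentile. Probe sets differ in how brightly they read, so levels are not compared between genes.

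**Figure D2:**
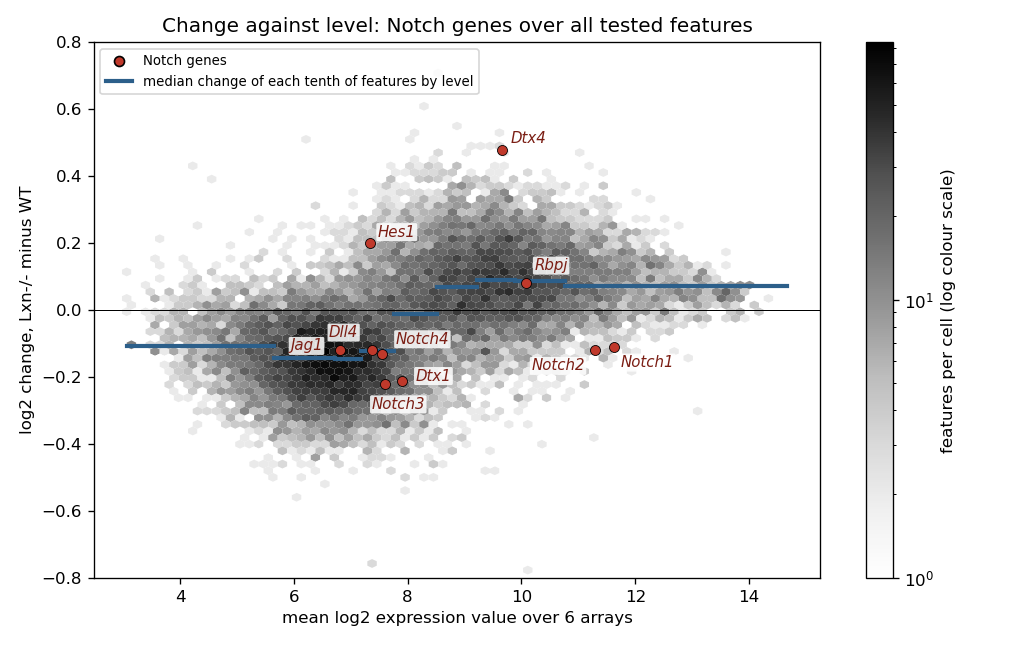
Log2 change (Lxn-/- minus WT) against mean log2 expression value for all tested features with changes up to 0.8 either way (grey, 23279 features) and for the 10 Notch genes (red), with the median change of each of 10 level bands (blue lines). Dtx4 and Hes1 lie above the median of their bands, Notch1 and Notch2 below theirs, and Jag1, Dll4, Notch4 and Rbpj close to it.

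All 4 receptor genes had lower means in arrays labelled Lxn-/-, against 57.8% of all features, and none passed the test. In the level band of Notch1 and Notch2 79.1% of features were higher, and in that of Notch3 and Notch4 23.8% were. The lower direction stayed when the arrays were centred on their medians or quantile-normalized again, but not for Notch1 without arrays 1 and 3. Notch1, the receptor needed for T cell commitment, was 11.42, 11.68 and 11.61 in arrays 1, 2 and 3 labelled Lxn-/- and 11.63, 11.78 and 11.62 in the WT arrays. Array 1 labelled Lxn-/- was the lowest, and the groups overlapped. The change of -0.11 (SE 0.10, interval -0.34 to 0.12, adjusted p 0.583) was within the spread between arrays, and it was -0.16 without array 2 and 0.003 without arrays 1 and 3. Notch2 was 11.09, 11.30 and 11.29 in arrays labelled Lxn-/- and 11.35, 11.41 and 11.28 in WT arrays. Array 1 was again the lowest of the 6. Its change was -0.12 (SE 0.10, interval -0.34 to 0.09, adjusted p 0.512), -0.16 without array 2 and -0.05 without arrays 1 and 3. Both receptors are in the brightest band, where the median change was 0.072 and 4.74% of features lay below the change of Notch1 and 4.02% below that of Notch2. Without array 1, the changes were -0.03 for Notch1 and -0.05 for Notch2, without WT array 2 that of Notch1 was -0.05, and after quantile normalization they were -0.20 and -0.21.

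Notch3, a receptor best known from smooth muscle of blood vessels and also linked to T cell leukaemia, had the most even difference among the receptors. It was 7.56, 7.48 and 7.44 in arrays labelled Lxn-/- and 7.65, 7.73 and 7.75 in WT arrays. Every array labelled Lxn-/- lay below every WT array. The means were 7.49 ± 0.06 in Lxn-/- and 7.71 ± 0.05 in WT (SD, n = 3 each), a change of -0.22 (SE 0.08, unadjusted p 0.0297, adjusted p 0.340 in limma). The change was -0.21 without array 2 (unadjusted p 0.08) and -0.23 without arrays 1 and 3 (unadjusted p 0.101). In its level band, however, the median change was -0.123, 21.5% of features were lower with no overlap, and 22.3% had a change below that of Notch3. After quantile normalization its change was -0.14 (unadjusted p 0.0889) and after centring -0.16 (unadjusted p 0.091), so the unadjusted call was lost in each of these 4 fits. Notch4, known from endothelial cells, was 7.66, 7.51 and 7.29 in arrays labelled Lxn-/- and 7.52, 7.86 and 7.49 in WT arrays. Its change of -0.13 (SE 0.13, adjusted p 0.599) was close to the median of the same band. It depended on single arrays, at -0.016 without WT array 2, -0.036 without array 3 labelled Lxn-/- and -0.219 without array 1 labelled Lxn-/-, and it was -0.043 after quantile normalization.

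The 2 ligand genes were dim and did not differ beyond the spread between arrays. Jag1, a Jagged ligand that stromal and endothelial cells of the marrow are known to present, was 6.96, 6.61 and 6.69 in arrays labelled Lxn-/- and 6.79, 7.02 and 6.81 in WT arrays. Its values ran through both groups, array 1 labelled Lxn-/- being next to the highest WT array. The change was -0.12 (SE 0.12, interval -0.38 to 0.14, adjusted p 0.582), against a band median of -0.147, and it turned to 0.01 after quantile normalization and was -0.22 without array 1 labelled Lxn-/- and -0.05 without WT array 2. Dll4, the Delta ligand that acts on T cell progenitors in the thymus, was 7.44, 7.17 and 7.35 in arrays labelled Lxn-/- and 7.37, 7.49 and 7.45 in WT arrays. Its change was -0.12 (SE 0.10, interval -0.34 to 0.10, adjusted p 0.536), against a band median of -0.123, and -0.01 after quantile normalization. Both ligands were lowest in array 2 labelled Lxn-/-, the array without Y-linked signal, so that their changes were -0.26 for Jag1 and -0.27 for Dll4 with that array alone, and -0.05 and -0.04 without it.

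Markers of the cells that could carry ligand RNA into a sort were measured in the same arrays. Of 7 stromal markers, 6 had lower means in arrays labelled Lxn-/-, against 57.8% of all features. The mean of the list was 7.59 to 7.66 in these arrays against 7.72 to 7.93 in WT arrays. No stromal marker passed the test (adjusted p from 0.340 to 0.696), 4 were lower at an unadjusted p under 0.05 (against 9.23% of all features), and 2 of the 7, Cxcl12 and Lepr, were not above the 95th percentile of olfactory receptor features. The 4 were Vcam1 (-0.52), Col1a2 (-0.33) and Col1a1 (-0.26), against a band median of -0.011, and Cxcl12 (-0.22), against -0.143. Lepr was at -0.17 (band median -0.107), Col3a1 at -0.09 (-0.123) and Pdgfrb at 0.12 (0.086). Cxcl12 and Col1a1 lost the unadjusted call after quantile normalization (p 0.313 and 0.0658 in limma) and after centring (p 0.107 and 0.0918). Vcam1 and Col1a2 kept it in both. Of 8 endothelial markers 6 were lower, with a list mean of 8.14 to 8.44 against 8.41 to 8.47. None of the 8 passed (adjusted p from 0.357 to 0.993). Their changes were -0.37 for Robo4, -0.35 for Tie1, -0.24 for both Sox18 and Emcn, -0.13 for Plvap, -0.01 for Kdr, 0.00 for Cdh5 and 0.27 for Pecam1. The band medians were 0.09 for Robo4, 0.068 for Tie1 and 0.086 for both Emcn and Pecam1. They were -0.123 for both Sox18 and Plvap, -0.143 for Kdr and -0.147 for Cdh5. Cdh5 and Kdr were not above the 95th percentile of olfactory receptor features, while the other 6 were. Which cells gave the signal of the endothelial markers was not tested. A lower list mean was not particular to stroma. The megakaryocyte list was 7.83 to 8.14 in arrays labelled Lxn-/- against 8.17 to 8.52 in WT arrays, with 4 of 4 markers lower. The erythroid list, of 2 measured markers, was 7.43 to 7.54 against 7.54 to 7.98. The macrophage, neutrophil and B lineage lists overlapped between groups. The mean of the 6 macrophage markers holds changes of both signs, none passing (adjusted p from 0.340 to 0.446 in limma). At an unadjusted p under 0.05, 2 were higher and 3 lower, against 5.06% and 9.23% of all features. The 2 were Csf1r (0.50) and Cd68 (0.32), against a band median of 0.09 each. The 3 were C1qb (-0.50), Mrc1 (-0.40) and C1qa (-0.27), against -0.011, -0.147 and -0.123. Adgre1 was at -0.23, against -0.147. The part of any of these cells in the ligand values was not tested.

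Rbpj, the DNA-binding partner through which all 4 receptors act, did not differ beyond the spread between arrays. It was 10.05, 10.10 and 10.20 in arrays labelled Lxn-/- and 10.11, 10.03 and 9.96 in WT arrays, which overlap. The change was 0.08 (SE 0.09, interval -0.12 to 0.28, adjusted p 0.641), against a band median of 0.086. It was 0.09 without array 2, 0.07 without arrays 1 and 3, 0.04 without either array 3 labelled Lxn-/- or WT array 3, and 0.000 after quantile normalization. The second feature of Rbpj was dim, at 6.22 ± 0.21 in Lxn-/- and 6.38 ± 0.06 in WT (SD, n = 3 each), and had the other sign (-0.17, SE 0.12, adjusted p 0.470). The mean of both features gave -0.04.

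Hes1, a repressor of the basic helix-loop-helix type and the target most used as a readout of Notch signalling, had a higher mean in arrays labelled Lxn-/- that rested on array 1. The values were 7.73, 7.20 and 7.35 in Lxn-/- arrays 1, 2 and 3 and 7.09, 7.37 and 7.22 in WT arrays. Array 1 was above all others, while arrays 2 and 3 lay within the WT range. The means were 7.43 ± 0.27 in Lxn-/- and 7.23 ± 0.14 in WT (SD, n = 3 each), a change of 0.20 (SE 0.14, interval -0.12 to 0.52, adjusted p 0.478). After quantile normalization the change was 0.33. Without array 1 it was 0.05, without WT array 1 it was 0.13, without array 2 labelled Lxn-/- it was 0.32 (adjusted p 0.441), and with array 2 as the sole Lxn-/- array it turned to -0.03. In its level band the median change was -0.123, and 94.4% of features had a change below that of Hes1. Its mean over the 6 arrays lay above 96.3% of olfactory receptor features, so it read only just over their 95th percentile of 7.20.

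Dtx1 and Dtx4 encode Deltex proteins, cytoplasmic E3 ubiquitin ligases that bind the intracellular part of Notch. Dtx1 is also induced by Notch signalling in lymphocytes. It was 7.99, 7.69 and 7.73 in arrays labelled Lxn-/- and 7.88, 8.09 and 8.06 in WT arrays. Array 1 labelled Lxn-/- was inside the WT range and the other 2 were below it. The change was -0.21 (SE 0.11, interval -0.46 to 0.04, unadjusted p 0.0887, adjusted p 0.382 in limma), against a band median of -0.011. Without array 1 it was -0.30 (adjusted p 0.143), without array 2 it was -0.15, and with array 2 alone -0.33.

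Dtx4 had the largest change of the 10 genes. The values were 10.06, 9.73 and 9.92 in Lxn-/- arrays 1, 2 and 3 and 9.60, 9.41 and 9.25 in WT arrays. All 3 arrays labelled Lxn-/- lay above all 3 WT arrays, the nearest pair being 0.13 log2 units apart. The means were 9.90 ± 0.17 in Lxn-/- and 9.42 ± 0.18 in WT (SD, n = 3 each), a change of 0.48 (SE 0.12, interval 0.20 to 0.76), or 1.4-fold higher. It had an unadjusted p of 0.00357, where 0.820% of features were higher at an unadjusted p under 0.01, and an adjusted p of 0.340, so it did not pass. The band median was 0.09, 18.7% of features in that band were higher with no overlap, and 99.3% had a change below that of Dtx4. The change was 0.57 without array 2 (adjusted p 0.129), 0.31 without arrays 1 and 3 (unadjusted p 0.0839, adjusted p 0.436), 0.40 without array 1 and 0.39 after quantile normalization. Within the arrays labelled Lxn-/-, array 2 was the lowest, 0.33 below array 1 and 0.19 below array 3, and the part of the Y-linked signal in this was not tested.

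**Figure D3:**
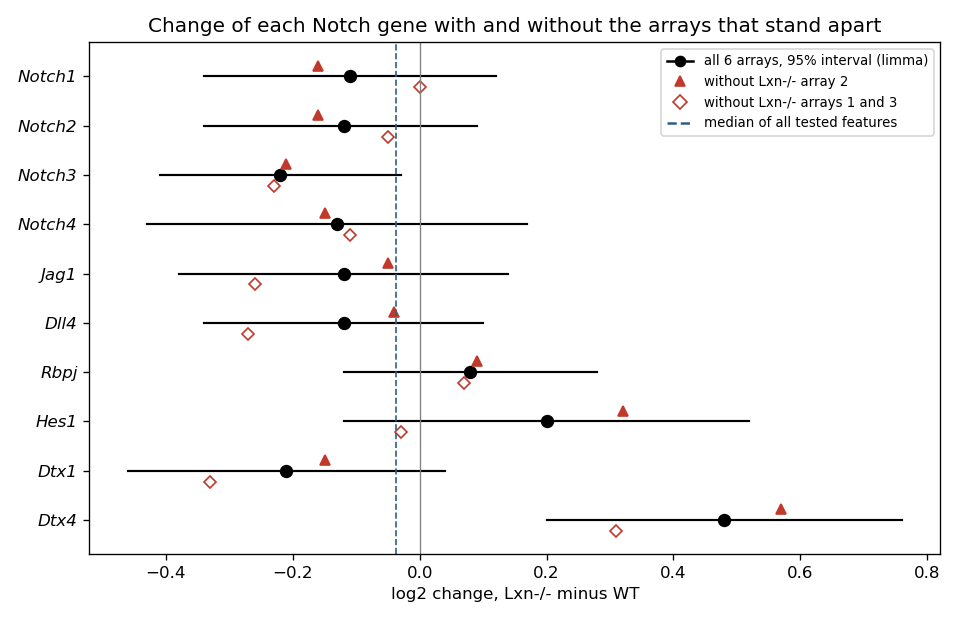
Log2 change of the 10 Notch genes, Lxn-/- minus WT, with the 95% interval from limma over all 6 arrays (black), the change without array 2 labelled Lxn-/- (triangles) and the change without arrays 1 and 3 (diamonds). The intervals of Dtx4 (0.20 to 0.76) and Notch3 (-0.41 to -0.03) leave out 0 before adjustment for multiple tests, and the changes of Hes1 (0.32 and -0.03) and Dtx4 (0.57 and 0.31) shift most between the triangles and diamonds.

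The machinery around these genes was followed in a list of 64 further pathway genes, of which 61 were measured. None of the 61 passed (adjusted p from 0.340 to 0.999). At an unadjusted p under 0.05 there was 1 higher and 3 lower, against 5.06% higher and 9.23% lower over all features. Groups did not overlap in 3 that were higher and 4 that were lower, against 8.54% and 13.0% of all features. The median change was 0.010, with 34 genes higher and 27 lower, and 46 of the 61 were among the brighter features, above 7.77.

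The enzymes that modify and cut the receptors showed small changes. All of those measured were among the brighter features, of which 69.3% had a higher mean in arrays labelled Lxn-/-. Of 5 genes for sugar transfer to Notch, 2 were higher and 3 lower. Poglut1, an O-glucosyltransferase of Notch repeats, was 9.74, 9.91 and 9.81 in arrays labelled Lxn-/- and 9.65, 9.64 and 9.50 in WT arrays. Its groups did not overlap, against 8.54% of all features and 18.7% of its level band higher with no overlap. The change was 0.23 (SE 0.09, unadjusted p 0.037, adjusted p 0.341 in limma), against a band median of 0.09. After quantile normalization it was 0.14 (unadjusted p 0.119). The Fringe genes Rfng and Mfng, which tune the choice of ligand, were at 0.10 (SE 0.09) and -0.10 (SE 0.11). Of 9 genes for receptor cleavage 7 were higher, with a median of 0.022. Adam10, the metalloprotease of the first ligand-induced cut, was at 0.17 (SE 0.10, adjusted p 0.414), Adam17 at 0.07 (SE 0.14), and Psenen, a subunit of the gamma-secretase that makes the final cut, at 0.04 (SE 0.08).

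Changes of nuclear partners were likewise small. The brighter features, of which 69.3% were higher, held all 7 co-activators and 7 of 9 co-repressors. They also held 11 of the 12 genes for endocytosis, ubiquitination and turnover. Of 7 co-activators 4 were higher, with changes from -0.13 to 0.08. Among these were the Mastermind gene Maml2 (-0.13, SE 0.17), Kat2b, an acetyltransferase gene (0.08, SE 0.13), and Snw1 (0.06, SE 0.09). Maml2 was 8.65 in array 1 labelled Lxn-/-, below the 9.42 and 9.14 of arrays 2 and 3 and the 9.18 to 9.25 of the WT arrays. Of 9 co-repressors at RBPJ 7 were higher. Hdac2, a histone deacetylase, was at 0.29 (SE 0.14, adjusted p 0.356) with no overlap between groups, where WT array 2 was low at 10.12 against 10.56 and 10.63. Higher with no overlap were 8.54% of all features and 19.1% of the level band of Hdac2, whose median change was 0.086. Tle1, a Groucho relative, was at 0.20 (SE 0.11), and Kdm5a, a histone demethylase, at 0.05 (SE 0.10). Of 12 genes for endocytosis, ubiquitination and turnover 7 were higher, with Neurl1a, a ligase for Delta, at -0.17 (SE 0.11), the Numb relative Numbl at -0.11 (SE 0.09), and Cul3, a cullin gene, at 0.10 (SE 0.08).

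Other ligands and targets leaned to lower means, as dim features did in general, with 2 of 6 and 5 of 13 among the brighter features. Of 6 other ligands 4 were lower. Dlk2, a non-canonical ligand, was 7.54, 7.42 and 7.53 in arrays labelled Lxn-/- and 7.64, 7.84 and 7.73 in WT arrays (-0.24, SE 0.09, adjusted p 0.340). Dll3 was at -0.22 (SE 0.09, adjusted p 0.344) and Dner at -0.11 (SE 0.09). The groups did not overlap in any of the 3, against 13.0% of all features lower with no overlap and 21.5% to 24.6% in their own level bands, and Dll3 and Dner were below the 95th percentile of olfactory receptor features. Of 13 other targets 8 were lower, with a median of -0.094. Ptcra, the pre-T cell receptor alpha chain that Notch induces in the thymus, was 7.21, 7.04 and 6.93 in arrays labelled Lxn-/- and 7.27, 7.24 and 7.38 in WT arrays. Its change was -0.24 (SE 0.10, adjusted p 0.344), against a band median of -0.147, and its mean level was also below that percentile. The Hes1 relative Hes5 was 8.79, 8.67 and 8.66 in arrays labelled Lxn-/- and 8.78, 8.94 and 9.01 in WT arrays. The change of Hes5 was -0.20 (SE 0.10, adjusted p 0.363), against a band median of 0.068. Its sign was opposite to that of Hes1, and the difference between them was not tested. Myc was at 0.14 (SE 0.10).

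**Figure D4:**
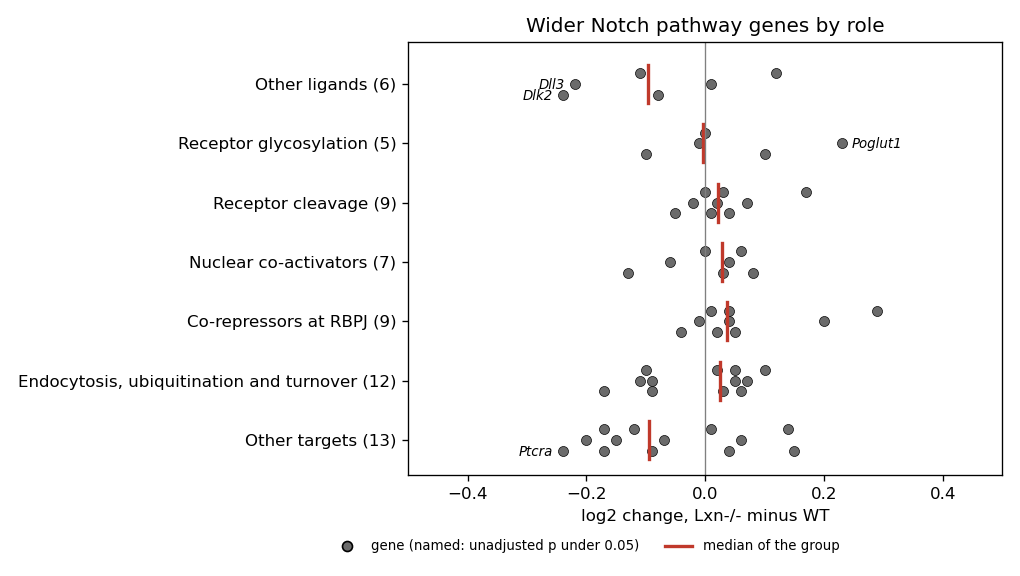
Log2 change, Lxn-/- minus WT, of the 61 measured genes of the wider Notch pathway list by role, with the number of genes in brackets and the median of each role as a bar. The medians run from -0.096 for other ligands to 0.036 for co-repressors, no gene passed after adjustment, and the 4 named genes had an unadjusted p under 0.05.

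Genes of early lymphoid priming (Il7r, Dntt, Rag1 and Rag2) had higher means in arrays labelled Lxn-/- for all 4 measured, against 42.2% of all features. Their changes were 0.16 (Rag1) to 0.36 (Rag2), and 0 passed in limma. Of the 4, 0 had an unadjusted p under 0.05, against 5.06% of all features higher at that threshold. In the bands of Il7r and Dntt, 76.5% and 79.1% of features were higher, and in that of Rag1 and Rag2 23.8% were. The change of Rag2 rested on array 2 labelled Lxn-/-, at 0.04 without that array, 0.76 without array 1 and 1.0 without arrays 1 and 3. The mean of this list was 9.15 to 9.64 in these arrays and 8.99 to 9.32 in WT arrays, with array 1 labelled Lxn-/- inside the WT range. The 6 T lineage markers were spread around 0, from -0.11 to 0.09, with 3 of them not above the 95th percentile of olfactory receptor features, and their list mean was 6.98 to 7.28 in arrays labelled Lxn-/- and 7.01 to 7.21 in WT arrays. Cd3e is in this list and among the targets.

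The 3 Notch genes with the widest range over the 6 arrays were Dtx4 (0.81), Hes1 (0.64) and Notch4 (0.56). For each, the most alike of 17023 genes were found by the root mean square difference of values centred on their own mean over the 6 arrays. For Dtx4 they were Camsap2 (0.057 log2 units), Fads2 (0.070) and Havcr2 (0.073). Camsap2 binds microtubule ends, Fads2 is a fatty acid desaturase and Havcr2 encodes the receptor TIM-3, and their changes were 0.40, 0.38 and 0.50, none passing (adjusted p 0.340 each in limma). For Hes1 they were Ptpmt1 (0.039), Pusl1 (0.044) and Setd6 (0.047), which were also highest in array 1 labelled Lxn-/-. For Notch4 they were Ttc39a (0.030), Tceal6 (0.034) and Epn3 (0.034), which were highest in WT array 2 and lowest in array 3 labelled Lxn-/-. With 6 arrays and this many genes, such likeness is a description only.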

How the data were processed

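Total RNA (100 ng) of the sorted cells was labelled with biotin per the labels' protocols and measured on MoGene 1.0 ST arrays, with 3 pools of each genotype and groups taken from the sample titles. The deposited table holds the authors' log2 values (35557 features, values 2.65 to 14.78), normalized by RMA per the series text; the log2 scale is inferred from that range. RMA and Partek 6.0 are named in the submitters' processing notes. The sources used here state neither the genome build nor the background settings. Scaling of arrays to a common distribution, as in RMA, hides differences in RNA content per cell. Quantile normalization of the tested features again moved their changes, so as deposited these features did not share a common distribution across arrays.

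Features were named through the platform's table and updated by Entrez identifier in the GRCm38.p6 gene table (21698 of 21789 single-gene features matched). Features with several symbols (1621) were tested and left unnamed, and 12147 without a symbol were not tested. Where several features carry a gene, the one with the highest mean stands for it. Lxn-/- was compared with WT by limma 3.58.1 under R 4.3.3 (lmFit, eBayes without trend, two-sided, Benjamini-Hochberg over 23410 features, threshold 0.05). The fit was also run on simulated data with independent values and no shift by level or by array. That setting is unlike these data, so it does not check the fit on them. Pools are the replicates, and 6 arrays limit the precision.

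The 10 genes, the pathway and marker lists and the naming rule were chosen with earlier results of these data known. All 10 are named. Of each pathway role, up to 3 genes with the largest moderated statistics are named. Other settings tried were a replicate block, arrays left out, other normalizations, feature sets and eBayes settings, array weights and the mean of a gene's features. Maml2, Cd3e and single markers named for their values were chosen after these were seen. Figures used matplotlib 3.10.9.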

Additional observations from a re-analysis of the deposited data

How the results depend on the processing

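None of the 10 Notch genes passed under any alternative run (smallest adjusted p 0.114, Dtx4). Of the alternative values of single genes, 151 kept their direction and 4 did not. These were Notch1 (0.003) and Hes1 (-0.028) without both arrays with Y-linked signal, Jag1 (0.008) after quantile normalization and Rbpj (-0.044) as the mean of its features. The 151 include settings in which the direction could not turn. The replicate block, the feature sets and the eBayes settings leave a gene's change as it is. The mean of a gene's features does so for every gene but Rbpj. Rbpj after quantile normalization, at 0.000, was counted as keeping its direction. Leaving out arrays one at a time gave 0 to 145 features passing the adjusted threshold, the 145 being without array 2 labelled Lxn-/-. In that fit the label coincides with the Y-linked signal. Xist and the Y-linked genes Eif2s3y, Kdm5d and Uty were among the 145. Leaving out arrays one at a time gave 1628 to 5541 features at an unadjusted p under 0.05, against 3346 with all arrays. Without arrays 1 and 3 labelled Lxn-/-, 3 features passed: Lrmda, Adck1 and 1 feature of several genes. The count at an unadjusted p under 0.05 was 1812 after quantile normalization (863 of them higher), 3129 after centring (2190 of them higher), 1356 among features above the median level (1000 of them higher) and 5614 with array weights, and 615 had a p under 0.01. Of the 3346, 1185 were higher. The median change of the 10 genes was -0.027 after quantile normalization and ranged from -0.144 to -0.053 when arrays were left out one at a time, -0.053 being without WT array 2. That of the wider pathway list was -0.043 after quantile normalization and 0.067 after centring. With the replicate number as a block 1 feature passed (Lrmda) and 3319 had an unadjusted p under 0.05. Deviations of same-numbered arrays correlated at 0.08, -0.01 and -0.01, so no pairing by number was seen. With 3 arrays per group, these values cannot show whether same-numbered pools were prepared together. Among features above the median level only 5 of the 10 genes remained, so no count or median over the 10 is given there. Jag1, Hes1, Dll3, Dner and other dim features lie where signal over background is small, and these values limit what can be seen for them. The causes of these shifts were not tested.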
